A study of Homo sapiens with 6 samples.

Results

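The genes described here are 32 genes of the apoptotic machinery: the BCL2 family, caspases and the factors that start them, and death receptors with their ligand, decoy and adaptors. They were taken from a list of gene symbols, and each was measured by its brightest probe set over the arrays. Of the 32, 30 were named by a probe set with a single gene symbol, out of 18417 genes so named on the array. BCL2L2 was named only by a probe set that it shares with the readthrough gene BCL2L2-PABPN1 and was not used, and the level of RIPK1 was not analysed here.

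The RNA came from A172, T98G and U87MG, established human glioblastoma lines grown in serum-containing medium. Cells of each line received either an oligonucleotide negative control or pre-miR338-5p, a precursor of the microRNA miR-338-5p that is called the mimic below, and were harvested after 24 hours. Every line gave 1 control array and 1 mimic array, so each group holds 3 arrays. The study looked for the genes that this microRNA acts on.

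Values are RMA levels on the log2 scale, on which a difference of 1 is a 2-fold difference, and the level of one gene's probe set says nothing about the level of another's. Genes in the lowest 25% by mean level, under 4.28, were not tested. That left 13812 genes and 26 of the 30 members. BCL2A1, BIK, CASP10 and TNFRSF10A fell below this minimum. No line or array was replicated within a treatment, so differences within a line carry no test. The p-values of the mimic comparison set the mean difference against its variation between the lines. Those of the comparisons between lines set the difference of levels against that same variation. In RNA from whole cultures, a change in the share of cells that express a gene cannot be told apart from a change in RNA per cell.

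Apoptosis can start inside the cell or at its surface. In the mitochondrial route, BH3-only proteins sense damage and either block the guardians (BCL2, BCL-XL from BCL2L1, MCL1) or activate the pore formers BAK and BAX, after which cytochrome c leaves the mitochondrion and builds the apoptosome with APAF1 and caspase-9. In the receptor route, TRAIL, the product of TNFSF10, binds death receptors that recruit FADD and caspase-8, and cFLIP from CFLAR holds caspase-8 in check. Glioblastoma cells are known for their resistance to many apoptotic signals.

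The sequence given to the cells in precursor form is shown first, since pairing with its seed is how a microRNA selects its messenger RNAs. It is the mature miR-338-5p of RefSeq (GRCh38.p14, chr17:81125923-81125944, minus strand), with the seed, bases 2 to 8, in capitals.

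hsa-miR-338-5p: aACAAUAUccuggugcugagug

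Of 2370 mature human miRNA names in that table, 1 has this seed, miR-338-5p itself. Transcript sequences were not used here, so matches to the seed in the members' messages were not counted.

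The arrays were alike in distribution, with medians from 5.06 to 5.14. Arrays of the same line correlated at 0.992 to 0.993 and arrays of different lines at 0.954 to 0.962. Of 10 glial and glioma markers, 8 had a mean above the tested minimum, whereas the astrocyte markers S100B and AQP4 lay below it. VIM and CD44 lay between 11.5 and 12.6 on every array. SOX9, NES and GFAP had means of 7.02, 5.97 and 5.22. The means of SOX2 and OLIG2, 4.345 and 4.49, were close to the minimum. SLC1A3 passed with a mean of 6.01 but was below the minimum in A172, at 3.85 with the control and 3.95 with the mimic. Mean levels of the glial list were 6.23 to 6.48 on control arrays and 6.30 to 6.41 on mimic arrays. Of the markers of other cell types, 0 of 3 oligodendrocyte genes, 2 of 5 leukocyte genes, 1 of 4 endothelial, 2 of 4 epithelial and 3 of 3 neuronal genes were above the minimum. Their list means were 3.52 to 3.75 on control and 3.55 to 3.71 on mimic arrays for oligodendrocytes, 4.36 to 4.77 and 4.35 to 4.75 for leukocytes, 3.77 to 4.49 and 3.80 to 4.49 for endothelium, 4.47 to 4.67 and 4.31 to 4.63 for epithelium, and 4.97 to 6.19 and 4.89 to 6.07 for neurons. The defining leukocyte genes PTPRC and CD3E had means below the minimum, at 3.21 and 3.43, as did AIF1, at 3.14. PTPRC was at 4.35 with the mimic in A172, above the minimum on that array. The leukocyte genes that passed were CD68, with a high mean of 9.02, and CD14, whose mean of 4.28 was barely above the minimum.

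With the mimic, MCL1 was higher in every line, and 6 of 6 tested BH3-only members had a lower mean. Of the apoptosome genes, APAF1 and CYCS were lower in every line and CASP9 was higher in every line. Over all tested genes 15.8% were lower and 18.5% higher in every line, and no member passed the adjusted test. In limma's paired fit 0 of 26 members had an adjusted p under 0.05 in either direction, against 0.319% of all tested genes called higher and 0.789% called lower. At an unadjusted p under 0.05 there were 3 members higher (MCL1, TNFSF10, TRADD) and 2 lower (BAK1, BCL2L11), against 6.01% and 5.83% of all tested genes. The median absolute change was 0.102 on the log2 scale over the members and 0.0804 over all tested genes.

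**Figure D1:**
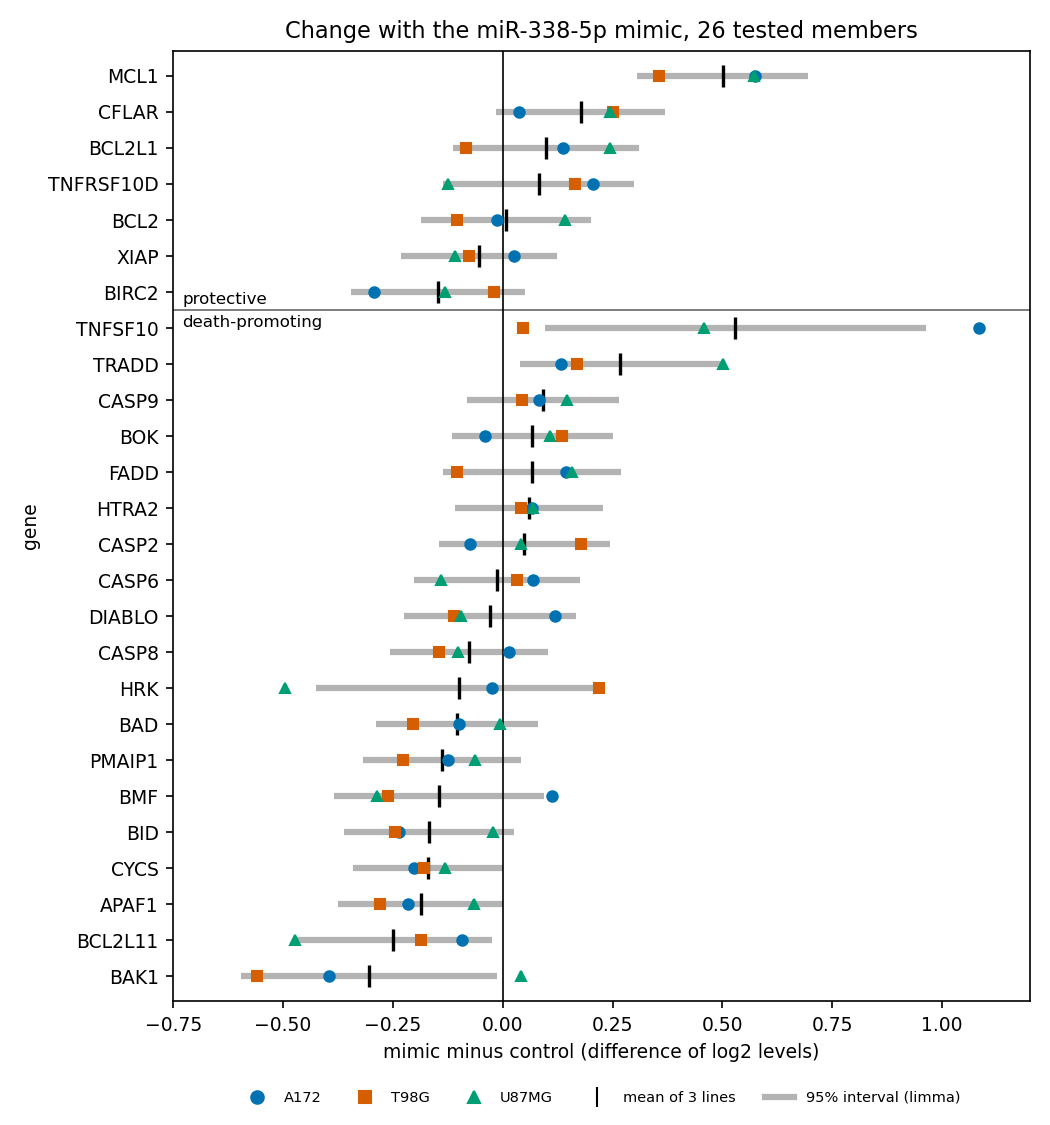
Differences between mimic and control levels (log2, horizontal axis) for the 26 tested members (vertical axis), with a symbol for each cell line, a black tick for the mean of the 3 lines and a grey bar for limma's 95% interval. MCL1 stands to the right of 0 in A172, T98G and U87MG, and the BH3-only genes BCL2L11, BID, PMAIP1 and BAD stand to the left in each of them.

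Among the guardians, MCL1, a short-lived protein that binds BAK and several BH3-only proteins, came closest to the threshold. Its level was 8.97 with the control and 9.54 with the mimic in A172, 9.09 and 9.45 in T98G, and 9.08 and 9.65 in U87MG. Every mimic array was above every control array, which held for 1.4% of all tested genes. The difference was 0.50 ± 0.12 on the log2 scale (SD, n = 3 lines; 95% interval 0.31 to 0.69), or 1.41-fold, with an adjusted p of 0.0508 in limma. In A172 and U87MG the difference was 0.57 and in T98G 0.36. The call depended on the setting: MCL1 passed in 5 of 10 alternatives, with adjusted p from 0.000826 to 0.0463, and missed in the other 5, from 0.0507 without T98G to 1.00 with the arrays unpaired. The size lay between 0.46 and 0.57 in each of them.

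The other guardians showed smaller differences that were not alike in the lines. BCL2L1 encodes BCL-XL, and its level was 9.01 with the control and 9.14 with the mimic in A172, 8.22 and 8.14 in T98G, and 8.73 and 8.97 in U87MG. The treatments overlapped, and the difference was 0.10 ± 0.17 (adjusted p = 0.726, limma). For BCL2, the founding member of the family, the difference was 0.01 ± 0.12, with a sign that turned when the arrays were rescaled to a common median or to common quantiles. BCL2A1 was higher with the mimic in every line, but it was below the tested minimum, at 2.85 to 3.40 on every array, and gave no usable value.

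Of the inhibitors of apoptosis, which bind caspases or tag signalling proteins with ubiquitin, BIRC2 (cIAP1) was at 8.37 with the control and 8.08 with the mimic in A172, 9.70 and 9.69 in T98G, and 8.63 and 8.49 in U87MG. The difference was -0.15 ± 0.14 (adjusted p = 0.557), largest in A172. XIAP, the inhibitor of caspases 3, 7 and 9, differed by -0.05 ± 0.07 (adjusted p = 0.83). CFLAR was at 6.77 and 6.80 in A172, 4.72 and 4.97 in T98G, and 6.52 and 6.77 in U87MG, a difference of 0.18 ± 0.12 (adjusted p = 0.454) that was near 0 in A172. CFLAR has a second probe set, on which the difference was 0.08, with 0.00 in A172, 0.09 in T98G and 0.16 in U87MG.

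The BH3-only genes are the sensors of the mitochondrial route, and 6 of the 6 tested members had a lower mean with the mimic. Of all tested genes 47.6% had a lower mean and 52.4% a higher one. BCL2L11, which encodes BIM, had the largest difference. It was at 5.47 with the control and 5.38 with the mimic in A172, 5.93 and 5.75 in T98G, and 5.29 and 4.81 in U87MG. Its difference of -0.25 ± 0.20 had an unadjusted p of 0.0353 and an adjusted p of 0.37 in limma, and it came mostly from U87MG, at -0.47.

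BID, which is cut by caspase-8 and so links the receptor route to the mitochondrion, was at 8.71 and 8.47 in A172, 9.45 and 9.20 in T98G, and 8.22 and 8.19 in U87MG. The difference of -0.17 ± 0.13 (adjusted p = 0.487) was seen in A172 and T98G and was -0.02 in U87MG. PMAIP1 encodes NOXA, a BH3-only protein that binds MCL1 by preference, and it differed by -0.14 ± 0.08 (adjusted p = 0.545). BAD differed by -0.10 ± 0.10. BMF (-0.15 ± 0.22) and HRK (-0.10 ± 0.36) were lower on average and higher in 1 line each. BIK was higher with the mimic in every line, but it was below the tested minimum, at 3.37 to 3.78, and gave no usable value. BBC3, a BH3-only gene that is not a member, differed by -0.02 ± 0.09 and was higher in T98G and U87MG.

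The means of the 6 tested members stayed negative when the arrays were rescaled to a common median or to common quantiles. BAD was no longer lower in each line after median rescaling, and HRK had a positive mean without U87MG. The median over the 6 genes was -0.142, against 0.00677 for all tested genes, and none of the 6 passed the adjusted test.

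Of the pore formers, BAK1 was lower in A172 and T98G but not in U87MG. Its level was 7.05 with the control and 6.65 with the mimic in A172, 6.85 and 6.29 in T98G, and 5.80 and 5.84 in U87MG. The 2 lines with the higher control level were thus those in which it was lower with the mimic. The mean difference was -0.30 ± 0.31 (unadjusted p = 0.0427, adjusted p = 0.395). BOK, a BCL2 relative that can form pores without the others, differed by 0.07 ± 0.09. BAX, which is not a member, differed by 0.06 ± 0.05 and was higher in every line.

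Downstream of the pore, APAF1, the scaffold of the apoptosome, was at 7.33 and 7.12 in A172, 7.08 and 6.80 in T98G, and 6.38 and 6.32 in U87MG, lower in every line by 0.19 on average (-0.19 ± 0.11, adjusted p = 0.425). CYCS, which encodes cytochrome c, was at 9.11 and 8.90 in A172, 9.51 and 9.33 in T98G, and 9.17 and 9.03 in U87MG. Its difference of -0.17 ± 0.04 (adjusted p = 0.424) had a small spread over the lines, though the treatments overlapped because the lines themselves differ. Cytochrome c also serves the respiratory chain. DIABLO (-0.03 ± 0.13) and HTRA2 (0.06 ± 0.01), which neutralise inhibitors of apoptosis once released, showed little difference.

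Of the 4 tested caspases, 0 had an unadjusted p under 0.05. The initiator CASP9 of the apoptosome differed by 0.09 ± 0.05 (adjusted p = 0.688) and was higher in every line except after median rescaling, CASP2 by 0.05 ± 0.13 and CASP8 by -0.08 ± 0.08. CASP6, an executioner, differed by -0.01 ± 0.11, and its 95% interval ran from -0.20 to 0.18. CASP10 stayed at 3.71 to 4.58 and was not tested.

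On the receptor side, TNFSF10, the gene of TRAIL, had the largest mean difference of any tested member and also the widest spread. Its level was 4.31 with the control and 5.39 with the mimic in A172, 7.13 and 7.17 in T98G, and 3.47 and 3.93 in U87MG. The difference was thus 1.08 in A172, 0.46 in U87MG, where both arrays lay below the tested minimum, and 0.05 in T98G, which already had the high level; the last turned sign after median rescaling. The mean of 0.53 ± 0.52 had an unadjusted p of 0.0237 and an adjusted p of 0.319 in limma, and without A172 it was 0.25.

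TNFSF10 is also known as a gene induced by interferon, and 10 other interferon response genes were set beside it. In A172 10 of the 10 were higher with the mimic, with a median difference of 1.22, led by IFIT2 at 2.37 and IFIT1 at 2.37. In T98G the median was -0.00 and 5 of the 10 were lower, and in U87MG it was 0.04 with 3 lower. Of the 10 genes 0 passed the adjusted test over the lines, and 3 had an unadjusted p under 0.05. The part of interferon signalling in the TNFSF10 difference was not tested.

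**Figure D2:**
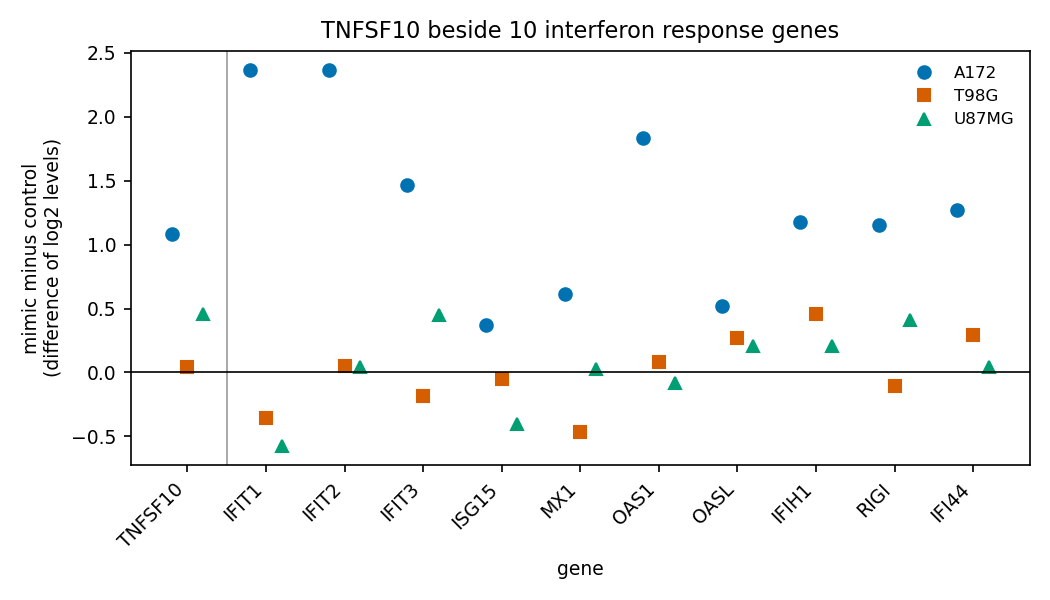
Differences between mimic and control levels (log2, vertical axis) of TNFSF10 and 10 interferon response genes (horizontal axis), with a symbol for each cell line, 1 array per line and treatment. The A172 symbols stand above 0 for TNFSF10 (1.08) and for each of the 10 interferon genes, while for the interferon genes those of T98G and U87MG lie on either side of 0.

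The promoter of TNFSF10 is shown because the interferon-stimulated response element is built on a short repeat that can be looked for in it. The motif searched was GAAANNGAAA on both strands of the 250 bases before each gene's start (RefSeq, GRCh38.p14). It was found in 3.71% of 27305 genes with a promoter in the table, in 6 of 8 such interferon genes, and in 3 of 25 such members, which were TNFSF10, BCL2A1 and RIPK1. These members were counted whether or not their level was tested, and of the 3 only TNFSF10 was. The TNFSF10 promoter runs over chr3:172523431-172523680 on the minus strand and is written in the direction of the gene, with the match, on the opposite strand, in capitals. The match lies 187 to 178 bases before the start and describes these letters alone.

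TNFSF10 promoter: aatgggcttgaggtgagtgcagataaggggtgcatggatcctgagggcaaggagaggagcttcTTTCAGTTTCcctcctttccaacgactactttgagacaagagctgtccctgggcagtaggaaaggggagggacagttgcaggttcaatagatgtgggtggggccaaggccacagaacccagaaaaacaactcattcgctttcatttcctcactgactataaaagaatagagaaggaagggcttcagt

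TRADD, an adaptor that joins TNF receptors to either survival or death signalling, was at 7.31 with the control and 7.44 with the mimic in A172, 7.37 and 7.54 in T98G, and 7.03 and 7.53 in U87MG. Like MCL1, it had every mimic array above every control array. The 2 of them were the only tested members of which this held, against 1.4% of all tested genes. For 0 tested members, and 1.56% of all tested genes, every mimic array was below. The difference of 0.27 ± 0.20 was largest in U87MG, at 0.50 (unadjusted p = 0.0282, adjusted p = 0.337). FADD, the adaptor of the death receptors, differed by 0.07 ± 0.15. The decoy receptor gene TNFRSF10D differed by 0.08 ± 0.18. TNFRSF10A, a death receptor for TRAIL, was at 4.03 to 4.57 on the arrays, with a mean of 4.25, just below the tested minimum. TNFRSF10B, another death receptor for TRAIL that is not a member, had a mean level of 8.33. It was lower in every line, by -0.18 ± 0.14 on average (adjusted p = 0.476, limma).

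Protective and death-promoting members were then compared as groups, by description alone. Of 7 tested protective genes 5 had a higher mean with the mimic, 2 were higher in every line (MCL1 and CFLAR) and 1 was lower in every line (BIRC2). Of 19 tested death-promoting genes 12 had a lower mean, 6 were lower in every line (BCL2L11, BID, BAD, PMAIP1, APAF1 and CYCS) and 4 were higher in every line (HTRA2, CASP9, TNFSF10 and TRADD). Over all tested genes 15.8% were lower and 18.5% higher in every line. The share of death-promoting genes lower in every line was 31.6% and the share higher 21.1%. After median rescaling BAD left the first group and HTRA2, CASP9 and TNFSF10 the second, and after repeated quantile normalization BIRC2 was no longer lower in every line; under either rescaling 4 of 7 protective genes had a higher mean, since BCL2 turned, and 12 of 19 death-promoting genes a lower one.

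The median difference was 0.08 for the protective and -0.08 for the death-promoting members, each taken over the genes' mean differences, which is a gap of 0.16. In A172 the medians were 0.04 and -0.02, in T98G -0.02 and -0.11, and in U87MG 0.14 and -0.02. Protective members thus had the higher median in each line, by 0.06, 0.09 and 0.16, so the gap of the mean differences is close to the widest of the 3. The gap is small beside the members' own range, -0.30 to 0.53, and it was 0.02 without U87MG, with a death-promoting median of 0.00 and 9 of the 19 genes lower. The protective median was 0.02 without A172 and 0.03 without U87MG.

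**Figure D3:**
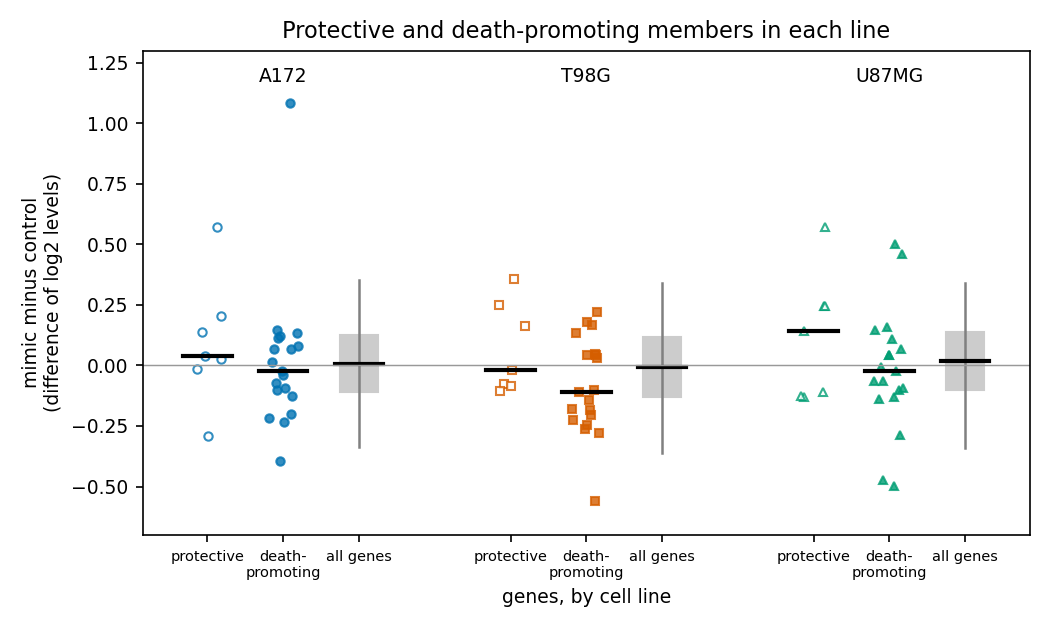
Differences between mimic and control levels (log2, vertical axis) of 7 protective members (open symbols) and 19 death-promoting members (filled symbols) in each cell line, with a black line at each median; the grey box and whiskers give the 25th to 75th and the 5th to 95th percentile of all tested genes. In each line the protective median lies above the death-promoting one, with the widest gap, 0.16, in U87MG, and the members of the 2 roles overlap.

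Other apoptosis genes were taken from a list of 42, of which 36 were named and 30 tested. With the mimic 0 passed the adjusted test in limma, 2 were higher and 1 lower at an unadjusted p under 0.05, and the median difference was 0.02. The largest was BNIP3, a hypoxia-induced BCL2 relative of mitochondrial turnover, at -0.26 ± 0.17 (adjusted p = 0.322), followed by BTRC at 0.22 ± 0.03 (adjusted p = 0.283) and FBXW7 at 0.22 ± 0.13 (adjusted p = 0.365). BTRC and FBXW7 are substrate receptors of ubiquitin ligases, and MCL1 is among the proteins that they are known to mark for degradation. Both were named for the size of their difference, and a link with the MCL1 difference was not tested. BTRC was at 7.20 with the control and 7.45 with the mimic in A172, 6.32 and 6.54 in T98G, and 6.52 and 6.72 in U87MG, and FBXW7 at 6.24 and 6.51, 5.85 and 6.17, and 6.52 and 6.60 in the same order.

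The lines differed from each other far more than the treatments did. Of 26 tested members 21 differed between the lines by limma's F test with the treatment as an additive term, against 67.5% of all tested genes. Without U87MG, where fewer arrays and only A172 and T98G were compared, 13 members did. The share of all genes was not counted in that setting, so 13 cannot be set against the 67.5%. The median span between the highest and the lowest line was 0.538 for the members and 0.535 for all tested genes. Between A172 and T98G 14 members differed (50.5% of all tested genes), between A172 and U87MG 15 (54.2%) and between T98G and U87MG 19 (47.1%). The members that did not pass were MCL1, HRK, DIABLO, FADD and TRADD. MCL1 had the smallest span of the 26, with line means of 9.26, 9.27 and 9.37 in A172, T98G and U87MG, so its difference with the mimic was larger than its difference between any pair of lines.

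**Figure D4:**
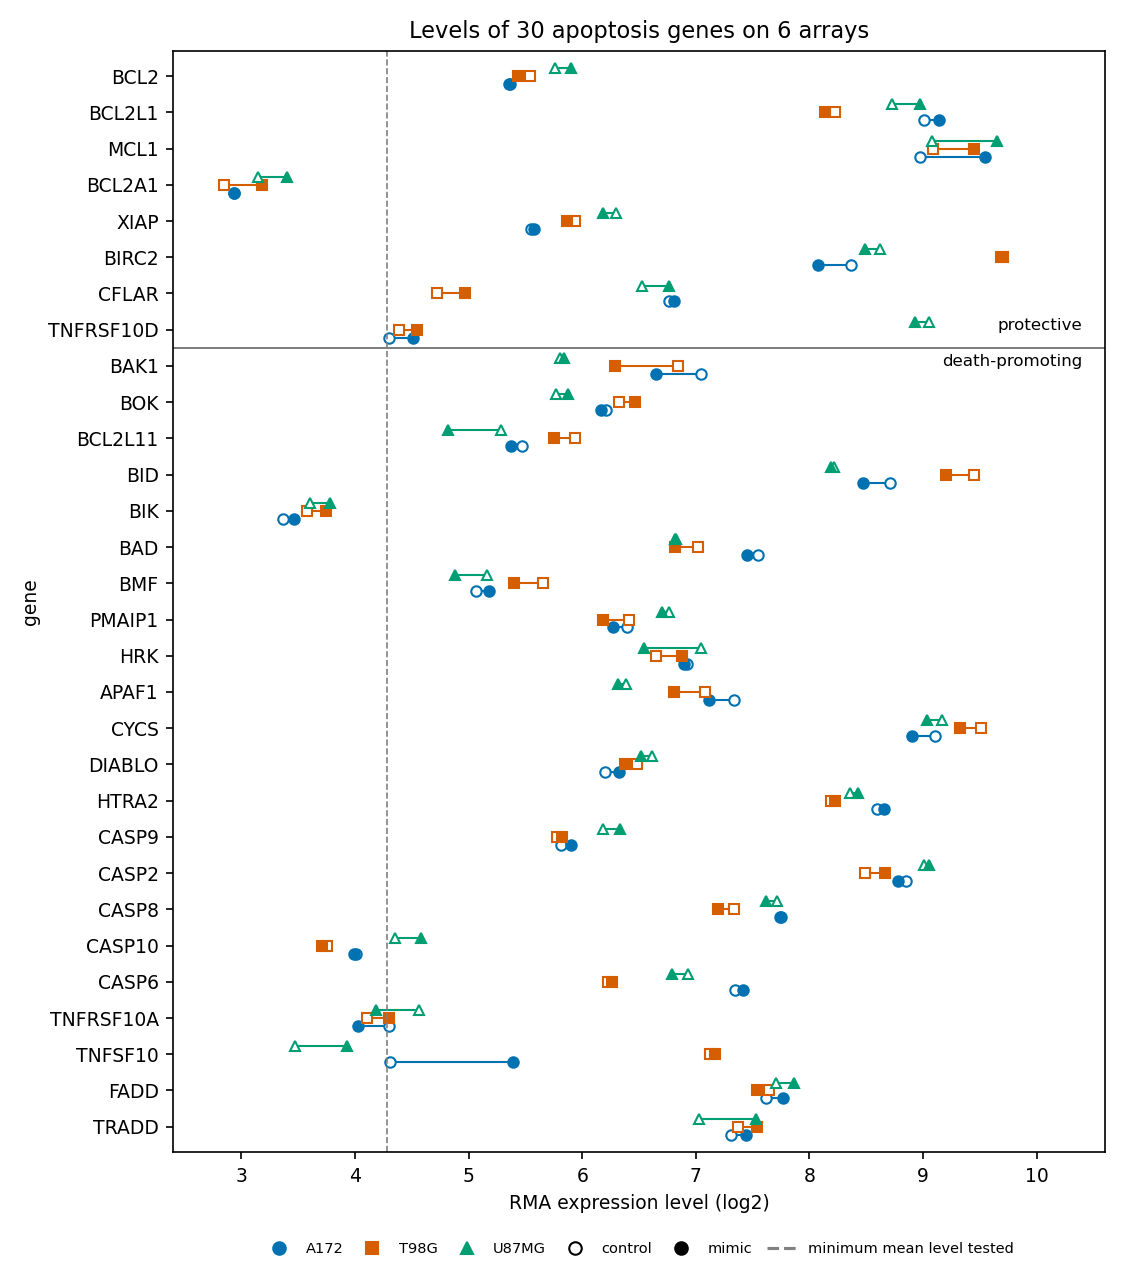
Expression levels (RMA, log2, horizontal axis) of the 30 named members (vertical axis) on each of the 6 arrays, open symbols for the control and filled symbols for the mimic, joined within a cell line; the dashed line is the minimum mean level for testing, 4.28. TNFRSF10D is far higher in U87MG and TNFSF10 in T98G, CFLAR and CASP6 are lowest in T98G, and the MCL1 symbols separate by treatment rather than by line; levels of different genes are not comparable.

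The 3 tested members with the widest span between lines were TNFRSF10D, TNFSF10 and CFLAR, of the receptor route, whereas its adaptors FADD (span 0.19, adjusted p = 0.295 in the F test) and TRADD (0.18, adjusted p = 0.417) did not pass. TNFRSF10D, which encodes a decoy that binds TRAIL without passing on a full death signal, was at 9.05 with the control and 8.93 with the mimic in U87MG, against 4.30 and 4.51 in A172 and 4.39 and 4.55 in T98G. U87MG stood above A172 by 4.59 on the log2 scale, or 24.1-fold (adjusted p = 6.88e-07, limma), and A172 and T98G did not differ beyond their spread (adjusted p = 0.671). Its levels in the other 2 lines were close to the tested minimum, though above it on every array.

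TNFSF10 ran the other way. The mean level was 7.15 in T98G, 4.85 in A172 and 3.70 in U87MG, below the minimum, and each neighbouring pair differed (adjusted p = 0.000226 for A172 and T98G, 0.00481 for A172 and U87MG). Only with T98G did its mean over the lines pass the minimum, so that it differed between lines follows in part from its being tested. T98G thus had the highest ligand level and a low decoy level, and U87MG the reverse.

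T98G also stood apart at the step after the receptor. CFLAR had a mean of 4.85 in T98G, against 6.79 in A172 and 6.64 in U87MG, a difference of 1.94 between A172 and T98G, or 3.83-fold (adjusted p = 1.42e-05), while A172 and U87MG did not differ beyond their spread (adjusted p = 0.264). CASP8 was lower in T98G as well, at 7.26, against 7.75 in A172 and 7.67 in U87MG (adjusted p = 0.00478 and 0.0112). BIRC2, whose product ubiquitinates RIPK1 at TNF receptors, was highest in T98G, at 9.69, with 8.56 in U87MG and 8.22 in A172; T98G exceeded A172 by 2.78-fold (adjusted p = 5.36e-05), and the 2 lower lines differed too (adjusted p = 0.0286).

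Of the mitochondrial route, BID was highest in T98G, at 9.33, then A172 at 8.59 and U87MG at 8.21, with adjusted p of 0.00101 and 0.0162 for the neighbouring pairs. BAK1 was lowest in U87MG, at 5.82, against 6.57 in T98G and 6.85 in A172, and the latter pair did not pass (adjusted p = 0.163). APAF1 had the same order, at 6.35, 6.94 and 7.23, with adjusted p of 0.00261 and 0.0478 for the neighbours. BCL2L1 was lowest in T98G, at 8.18, with U87MG at 8.85 and A172 at 9.08, of which the last 2 did not differ beyond their spread (adjusted p = 0.126).

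CASP6 was at 7.35 with the control and 7.42 with the mimic in A172, 6.93 and 6.79 in U87MG, and 6.23 and 6.26 in T98G. All pairs of lines differed (adjusted p = 0.000131, 0.0039 and 0.00225 for A172 and T98G, A172 and U87MG, and T98G and U87MG), and the order was the same with control and mimic. No line had the highest level throughout: A172 had the highest mean of the 3 lines for 9 of the 26 members, T98G for 8 and U87MG for 9.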

How the data were processed

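The values are those the authors deposited: log2 expression of 33297 probe sets on 6 Affymetrix Human Gene 1.0 ST arrays, made with RMA and the package oligo in R 3.0.1, per the submitters' processing notes. Any filter or batch is not given in the sources used here. RMA sets all arrays to a common distribution, which largely removes a shift of most genes. Scanner files were not used.

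Probe sets with 1 symbol (19460, of which 19429 matched RefSeq of GRCh38.p14 by gene identifier) were kept, 1 per gene by highest mean. Several symbols were given for 1754 and none for 12083. The mimic was compared with the control over all 13812 tested genes by linear models with moderated variances (limma 3.58.1, R 4.3.3). Tests were two-sided, p-values were adjusted by Benjamini and Hochberg's method with 0.05 as the threshold, and the line entered as a block. The labels name the line of each array, and deviations from the group means correlated within a line at 0.951 to 0.958. Lines were compared with the treatment as an additive term, which uses the 2 arrays of a line as its replicates. The number of arrays limits the precision, with 2 residual degrees of freedom. The script was tested on simulated data.

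Members, roles and lists were chosen with earlier results of these data known. The genes given with values on each array were MCL1, any called member, the 10 tested members of largest absolute mean difference and the 8 of largest span between line means. Of the other apoptosis genes, those called and the 3 of largest difference were named. Other genes were named after their values were seen. Alternatives were unpaired arrays, other filters, probe set means, a variance prior that follows expression, 2 rescalings and leaving out each line.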

Additional observations from a re-analysis of the deposited data

Results flagged for a closer look

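HRK, which encodes a BH3-only protein known from neurons, differed in opposite directions in a pair of lines by at least 0.2 each. With the mimic it was higher by 0.22 in T98G and lower in U87MG, at -0.50, so that the difference in T98G exceeded that in U87MG by 0.717 on the log2 scale. In A172 it was -0.02. With 1 array per line and treatment this difference between lines was not tested.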

How the results depend on the processing

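The number of genes called in the mimic comparison was 153 in the setting used, 0 with no replicate block (arrays unpaired; 127 at an unadjusted p under 0.05), 60 with no filter, 360 with the lower 50% left out, 471 when the variance prior followed expression, and 236 with arrays centred on their medians; leaving out 1 line gave 117 without T98G, 64 without A172 and 0 without U87MG (1339 at an unadjusted p under 0.05). Fewer arrays and, in the filters, other numbers of tested genes are part of these settings. The number of members called was 0, and 1, MCL1, with the lower 50% left out, probe set means, the variance prior, centring or repeated quantile normalization; without 1 line it was 0 to 0. Members called between lines numbered 21, and 13 to 19 without 1 line, where only a single pair of lines was compared and the share of all genes was not counted. The protective median was 0.02 to 0.06, the death-promoting median -0.105 to 0.0043 and their gap 0.0221 to 0.125 without 1 line; under the other alternatives these values moved by less than 1 SD over the lines. For the 10 members of largest difference, 93 of 98 alternative values kept direction and side of the threshold, and the other 5 were MCL1. Background correction and array batches could not be varied on the deposited values.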

Other observations

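Among other apoptosis genes, 20 of 30 tested differed between the lines by limma's F test, which is close to the 67.5% of all tested genes. CASP1, the activator of interleukin-1 beta, was at 6.86 with the control and 6.91 with the mimic in T98G, against 4.92 and 4.81 in U87MG. In A172 CASP1 was at 3.67 and 3.49, below the tested minimum. Its mean over the lines passed the minimum only with T98G, so that it was tested at all follows from that line. CASP4, which senses bacterial lipopolysaccharide, was at 9.44 and 9.31 in T98G, 7.78 and 7.87 in U87MG and 7.44 and 7.59 in A172. TNFRSF1B, the second TNF receptor, was at 8.16 and 7.79 in U87MG, against 4.84 and 5.00 in A172 and 4.76 and 5.03 in T98G, highest in U87MG like TNFRSF10D. BNIP3 was highest in T98G, at 10.50 and 10.19, with 9.12 and 9.05 in U87MG and 8.16 and 7.77 in A172. These genes were chosen after their values were seen.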
